A study of Mus musculus with 24 samples.

Results

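The Toll-like receptors are the membrane receptors through which blood leukocytes recognise molecules of bacteria and viruses, and Myd88 is the adaptor protein that most of them use to signal. Of 29742 genes on the array, 10 were studied here: Tlr1, Tlr2, Tlr3, Tlr4, Tlr6, Tlr7, Tlr8, Tlr9, Tlr13 and Myd88. The rule used their names and no measured value, but earlier results of these data were known when it was set. Each of the 10 had at least 1 probe carrying its symbol. After the filters on dim and little-changing probes, 9 of the 10 were among the 17472 genes tested, and Tlr3 was not.

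Gene expression was measured in the whole blood of 24 male C57BL/6J mice, 1 mouse per array, on Agilent mouse arrays read with a single dye (Cy3). The design crossed age with radiation, with 6 mice in each of 4 groups: young (2 months) unirradiated, young irradiated, old (21 months) unirradiated and old irradiated mice. Irradiated mice received 4 Gy of x-rays to the whole body, unirradiated mice were sham handled, and blood was drawn 24 h later. Blood is a mixture, so fewer cells of a type and less RNA per cell cannot be told apart in any value below.

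Tlr1, Tlr2, Tlr4 and Tlr6 sit on the cell surface and bind lipids and lipoproteins of the bacterial envelope, whereas Tlr3, Tlr7, Tlr8, Tlr9 and Tlr13 sit in endosomes and bind nucleic acids. Ligand binding brings the receptors' TIR domains together, Myd88 docks onto them and recruits kinases of the Irak family, and NF-kappaB and interferon regulatory factors then turn on inflammatory genes. Tlr3 is the member that signals through another adaptor, Ticam1 (TRIF), and Tlr4 uses both. Neutrophils and monocytes are the blood cells best known for the surface receptors, and B cells and plasmacytoid dendritic cells for Tlr7 and Tlr9.

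Each gene was read by a probe of 60 bases. The first 30 bases are shown with their positions in the mouse build mm9 as given in the array files, because a value holds only for transcripts that carry this stretch. No gene model of that build was used here, so exon and UTR annotations are not given. Where a gene had several probes, the one with the highest mean represented it. Lower case is used throughout because no part of a probe is singled out.
Tlr1, minus strand, chr5:65316115-65316174: caagcatggacttttttgggcaaacctaag
Tlr2, minus strand, chr3:83640344-83640403: ccttggatgaaggccagcaggaagtgtttt
Tlr6, minus strand, chr5:65344365-65344424: ttatgaagttagccttagtcaatgaggatg
Tlr4, plus strand, chr4:66503470-66503529: ttgagaacattttggggaggaagaaaggtc
Tlr3, minus strand, chr8:46481729-46481788: taatgctcatttttgagacgtttatagaat
Tlr7, minus strand, chrX:163742863-163742922: tctctctctctgatactgaactgtaccaga
Tlr7 second probe, minus strand, chrX:163743146-163743205: cataaatgaaggtctgaatttttcctaaca
Tlr8, minus strand, chrX:163680626-163680685: tgatgggaagtcacgactctgccatcataa
Tlr9, plus strand, chr9:106128979-106129038: ctggttcccgagttgctctgcctgccttgc
Tlr13, plus strand, chrX:103355773-103355832: tgagtaacccttcacctatgttcttgtaag
Myd88, minus strand, chr9:119245322-119245381: ggtttgcatcttcttattcctttcacgttc

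Levels below are log2 of the spot signal minus the median of the array, and a difference of 1 is a doubling. A gene was called, and is said to have risen or fallen, at an unadjusted p below 0.005 together with a Benjamini-Hochberg adjusted p below 0.05 in limma's two-sided moderated test over all genes tested. The median signal of an array ranged from 8.66 to 44.8 and the share of spots well above background from 43.9% to 64.4%, which limits what dim genes can show. All young arrays were scanned on 1 day and all old arrays on another, with no slide in common, so age cannot be told apart from scan day or slide. The blood samples held the markers of leukocytes, with 9 of 10 neutrophil genes well above background on every array and all 8 B cell and 8 T cell genes on every unirradiated one. Hepatocyte genes were high (mean level of at least 7) in 7 mice, young unirradiated mouse 5, young irradiated mice 2, 4 and 5 and old irradiated mice 2, 3 and 5. Old irradiated mice 4 and 6 stood apart from the rest of their group. Across the 17472 genes their arrays correlated at 0.776 to 0.850 with the other 4 arrays of the group and at 0.989 with each other, against 0.894 to 0.994 for all other pairs within a group. They had the lowest median signals of the series, 8.66 and 8.84, and the highest summed level of red cell precursor markers, 15.95 and 16.09. The SD of the 9 tested genes ran from 1.3 (Myd88) to 2.37 (Tlr4) in old irradiated mice, against a median of 0.866 over all genes. Both also lay below the other 4 mice of the group in the summed level of neutrophil markers (12.43 to 12.68 against 13.32 to 14.97), monocyte markers (10.24 to 10.25 against 10.92 to 12.01) and natural killer cell markers (8.31 to 8.37 against 9.34 to 10.22). They lay above the other 4 in T cell markers (9.73 to 9.93 against 8.95 to 9.61) and platelet markers (14.98 to 15.06 against 13.81 to 14.58). Their B cell markers, at 6.02 to 6.29, were as low as those of 1 other mouse of the group, whose range was 6.22 to 9.76. The part of these cells in the levels of the receptors on the 2 arrays was not tested. The comparisons with old irradiated mice are therefore given with and without these 2 arrays.

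**Figure D1:**
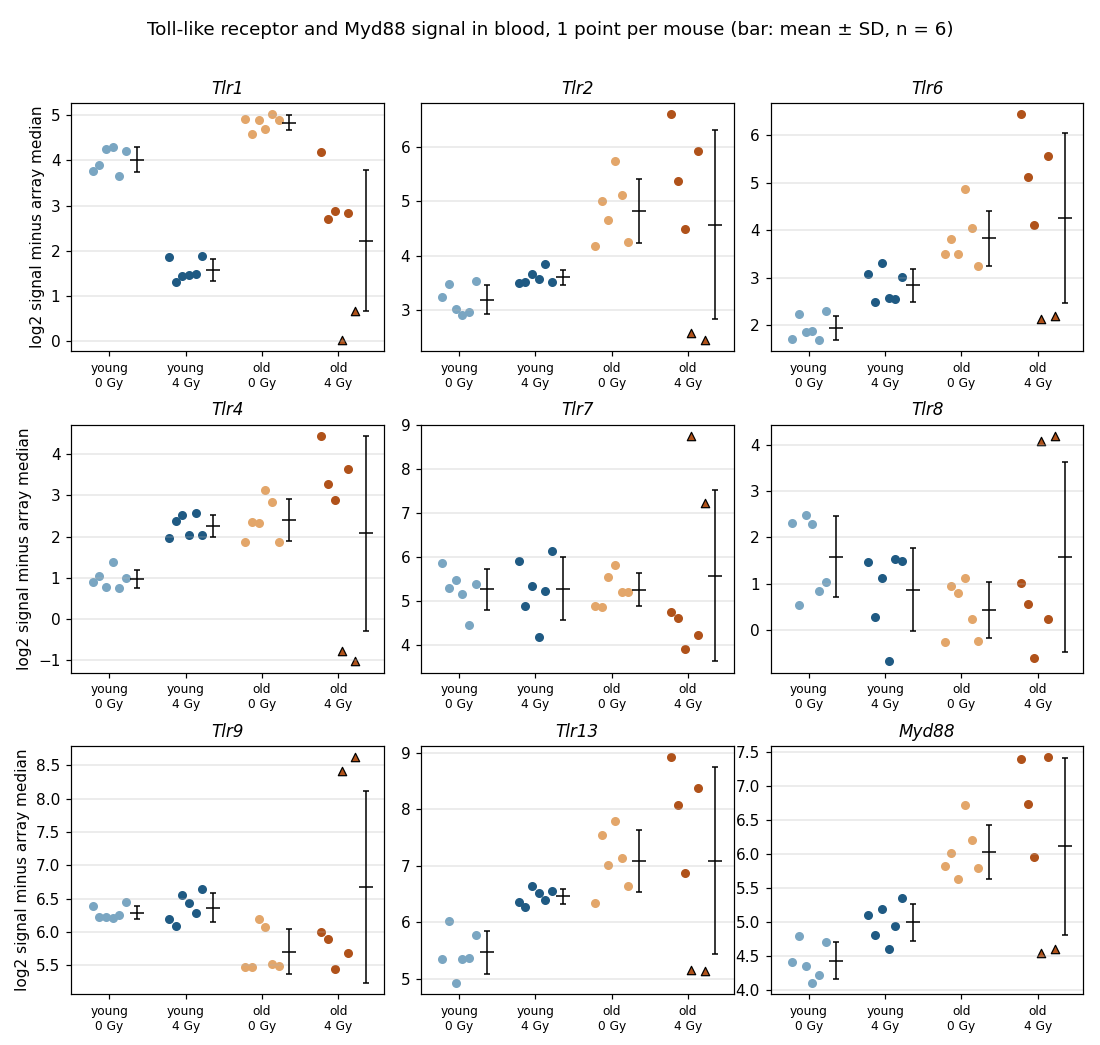
Level (log2 signal minus array median) of the 9 tested genes in each mouse, 1 panel per gene, with 6 mice in each of the 4 groups and a bar for the mean ± SD; triangles mark old irradiated mice 4 and 6. Tlr1 was lower in all 6 irradiated mice of either age than in any unirradiated mouse of that age, and the triangles lie at the edge of the old irradiated group for every tested gene.

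Irradiation of young mice divided the receptors. Tlr1 fell, Tlr4, Tlr13 and Tlr6 rose, and Tlr2, Tlr7, Tlr8, Tlr9 and Myd88 were not called. The 3 genes that rose stand against 14.4% of all genes called higher in this comparison, and the 1 that fell against 21.4% called lower. In 4 of the 9 genes the irradiated and unirradiated young mice did not overlap, against 25.0% of all genes. The median difference of the 9 genes was 0.40, and that of all genes was -0.20. In old mice Tlr1 alone was called, and it fell, where 17.4% of all genes were called lower and 7.60% higher. The exact permutation test of 6 against 6 mice cannot give a two-sided p below 0.00216, which is the value of every comparison below whose groups do not overlap.

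**Figure D2:**
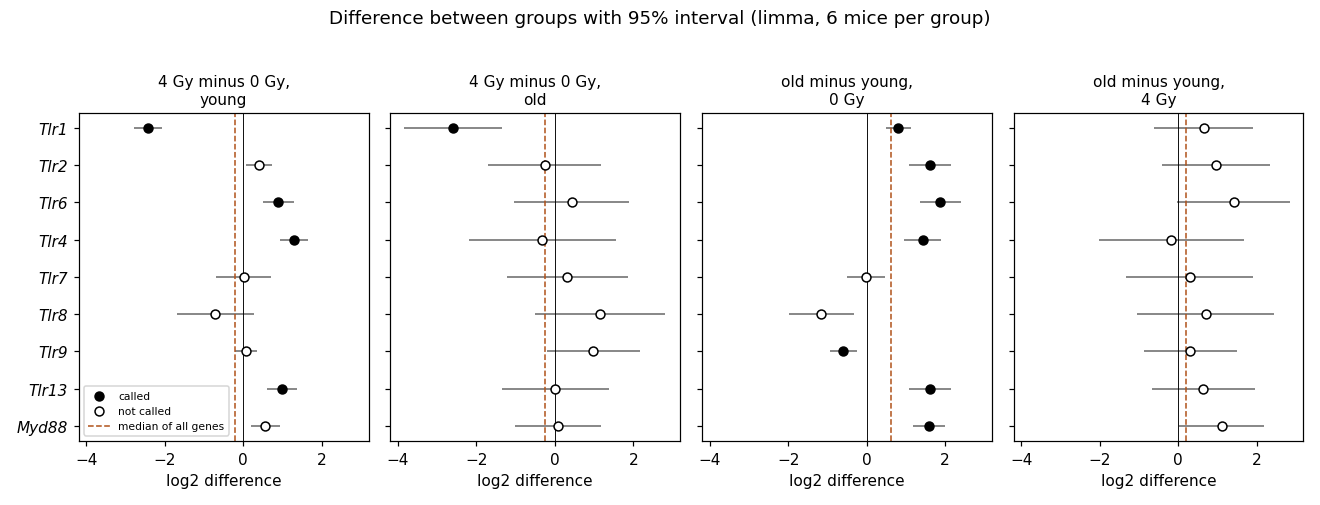
Difference between group means (log2) of each tested gene in the 4 comparisons, with its 95% confidence interval from limma; filled points were called. The intervals of the comparisons that hold old irradiated mice are the widest, and the difference of Tlr1 lies below 0 for radiation at both ages.

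Tlr1, the partner of Tlr2 in the recognition of triacylated lipoproteins, was the gene that irradiation lowered. Its level ran from 3.66 to 4.29 with a median of 4.05 in young unirradiated mice and from 1.3 to 1.88 with a median of 1.47 in young irradiated mice. The groups were far from overlapping, and all 6 irradiated mice lay below all 6 controls. The mean was 4.01 ± 0.271 in controls and 1.57 ± 0.241 after irradiation (SD, n = 6 each), and the log2 difference was -2.44 (SE 0.165, limma adjusted p = 7.39e-07), a fall of 5.42-fold. In old mice Tlr1 ran from 4.57 to 5.01 with a median of 4.89 without radiation and from 0.03 to 4.19 with a median of 2.77 after it. The highest irradiated old mouse thus lay below the lowest old control, and old irradiated mice 4 and 6, at 0.03 and 0.67, were the lowest. The means were 4.83 ± 0.167 and 2.22 ± 1.56 (SD, n = 6 each), and the log2 difference was -2.61 (SE 0.58, limma adjusted p = 0.00497). Without mice 4 and 6 the difference in old mice was -1.67 (limma adjusted p = 0.000872), smaller than with them and still called. Within the 1 slide per age that held both groups, with 2 arrays each, the difference was -2.35 in young and -1.50 in old mice and was not called.

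The fall of Tlr1 came with a fall of B cell markers. The summed level of all 8 B cell genes ran from 10.66 to 10.96 in young unirradiated and from 7.69 to 9.18 in young irradiated mice, and from 10.85 to 11.84 and 6.02 to 9.76 in the corresponding old groups. All 8 genes were well above background on every unirradiated array, against 6 in all young irradiated and 5 in all old irradiated arrays, and none of the 8 was absent from a whole group. The median summed level of T cell markers was also lower after irradiation, 8.83 against 9.81 in young and 9.48 against 9.68 in old mice. So was that of plasmacytoid dendritic cell markers (10.11 against 10.76 and 10.69 against 11.2) and, at both ages, red cell precursor markers. In summed level these lists overlapped between irradiated and unirradiated mice, unlike the B cell list. In the mean level of their genes they did not overlap in young mice, nor did the B cell list. The highest irradiated young mouse lay below the lowest unirradiated one for T cell markers (5.68 against 5.84). The same held for plasmacytoid dendritic cell (4.28 against 4.7) and red cell precursor markers (8.2 against 8.69). In old mice it held for plasmacytoid dendritic cell markers (4.29 against 4.34) but not for T cell or red cell precursor markers. The remaining lists had higher medians after irradiation, except the monocyte list in old mice. The part of any of these cells in the level of Tlr1 was not tested.

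Tlr4, the receptor of bacterial lipopolysaccharide, showed the largest rise in young mice among the 9 genes. It ran from 0.74 to 1.37 with a median of 0.94 in unirradiated and from 1.96 to 2.57 with a median of 2.21 in irradiated young mice. All 6 irradiated mice were above every control. The mean rose from 0.96 ± 0.229 to 2.25 ± 0.27 (SD, n = 6 each), a log2 difference of 1.29 (SE 0.162, limma adjusted p = 6.12e-05), or 2.44-fold.

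Old mice gave no such call for Tlr4. Their levels ran from 1.86 to 3.14 with a median of 2.34 in controls and from -1.04 to 4.45 with a median of 3.09 after irradiation. The other 4 irradiated old mice lay between 2.90 and 4.45, whereas mice 4 and 6, at -0.78 and -1.04, had the lowest Tlr4 of all 24 mice and no signal well above background. The mean difference was -0.32 (SE 0.873, limma adjusted p = 0.792) over all 6 mice and 1.17 (limma adjusted p = 0.0145) without mice 4 and 6, where the unadjusted p of 0.00503 missed the threshold. A second Tlr4 probe, taken from another transcript, was well above background on 0 of 24 arrays.

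Tlr6, the partner of Tlr2 for diacylated lipoproteins, ran from 1.70 to 2.29 with a median of 1.86 in young unirradiated and from 2.49 to 3.31 with a median of 2.79 in young irradiated mice. The groups did not overlap, and the mean rose from 1.95 ± 0.256 to 2.84 ± 0.341 (SD, n = 6 each). The log2 difference was 0.89 (SE 0.183, limma adjusted p = 0.0016). In old mice Tlr6 ran from 3.25 to 4.86 with a median of 3.66 before and from 2.13 to 6.43 with a median of 4.61 after irradiation. The old groups overlapped, with mice 4 and 6 at 2.13 and 2.20 below the controls and the other 4 between 4.10 and 6.43. The difference in old mice was 0.43 (SE 0.685, limma adjusted p = 0.645), and 1.48 (limma adjusted p = 0.0149) without mice 4 and 6, again not called because the unadjusted p was 0.00523.

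Tlr1 and Tlr6 are neighbours on mouse chromosome 5, and irradiation of young mice moved them in opposite directions. Their promoters, the 250 bases before a transcript start in RefSeq's GRCm38.p6, are shown with the motif matches in capitals to let the pair be compared. Of the 10 genes, 8 had such a sequence, and 4 motifs were searched on both strands: the PU.1 core GAGGAA, the AP-1 site TGANTCA, the NF-kappaB site (GGGA and CC with 4 bases between them) and the interferon-stimulated response element (GAAA and GAAA with 2 bases between them). Of 32851 promoters, these were found in 23.3%, 6.75%, 17.6% and 2.98%. Of the pair of Tlr1 starts listed, the one shown holds 1 match, to the PU.1 core, 23 bases before the start, and the other start holds none. Of the pair of Tlr6 starts listed, the one shown holds 2 overlapping matches to the interferon-stimulated response element on the opposite strand, 116 and 110 bases before the start, and the other holds 0.
Tlr1, chr5:64933559-64933808, minus strand: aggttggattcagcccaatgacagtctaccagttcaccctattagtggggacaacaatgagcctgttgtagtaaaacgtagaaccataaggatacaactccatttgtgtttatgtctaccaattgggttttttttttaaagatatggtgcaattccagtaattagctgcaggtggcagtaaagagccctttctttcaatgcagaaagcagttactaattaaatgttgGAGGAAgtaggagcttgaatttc
Tlr6, chr5:64959167-64959416, minus strand: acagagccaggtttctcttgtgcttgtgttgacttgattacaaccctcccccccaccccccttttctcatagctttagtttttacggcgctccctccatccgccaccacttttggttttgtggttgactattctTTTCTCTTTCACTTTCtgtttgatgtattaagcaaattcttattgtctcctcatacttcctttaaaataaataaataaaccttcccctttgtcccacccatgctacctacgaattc

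Tlr2, the shared partner of Tlr1 and Tlr6, moved less with radiation. It ran from 2.91 to 3.54 with a median of 3.13 in young unirradiated and from 3.49 to 3.85 with a median of 3.54 in young irradiated mice, so that the groups just overlapped. The means were 3.19 ± 0.271 and 3.6 ± 0.136 (SD, n = 6 each), and the log2 difference of 0.40 (SE 0.149, limma adjusted p = 0.0392) was not called. In old mice Tlr2 ran from 4.18 to 5.74 with a median of 4.83 in controls and from 2.45 to 6.59 with a median of 4.93 after irradiation, where mice 4 and 6 were the lowest at 2.57 and 2.45. The difference was -0.26 (SE 0.669, limma adjusted p = 0.783), and 0.77 (limma adjusted p = 0.142) without mice 4 and 6.

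Among the receptors of nucleic acids, irradiation of young mice raised Tlr13, a sensor of bacterial ribosomal RNA. It ran from 4.93 to 6.03 with a median of 5.36 in unirradiated and from 6.27 to 6.65 with a median of 6.45 in irradiated young mice, and the groups did not overlap. The mean rose from 5.47 ± 0.384 to 6.45 ± 0.14 (SD, n = 6 each), a log2 difference of 0.99 (SE 0.178, limma adjusted p = 0.000672), or 1.98-fold. In old mice Tlr13 ran from 6.35 to 7.80 with a median of 7.08 in controls and from 5.14 to 8.92 with a median of 7.48 after irradiation. Mice 4 and 6, at 5.16 and 5.14, were below every old control. The difference was 0.01 (SE 0.637, limma adjusted p = 0.995), and 0.98 (limma adjusted p = 0.0589) without them.

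The rises of Tlr4, Tlr6 and Tlr13 in young mice came with higher myeloid, natural killer cell and platelet markers. The summed level of 10 neutrophil genes ran from 10.63 to 11.88 in unirradiated and from 11.99 to 13.52 in irradiated young mice, with 9 of the 10 well above background on every array of both groups. That of the 7 monocyte genes on the array, of 8 listed, ran from 9.99 to 10.98 and from 11.21 to 12.38, with all 7 well above background throughout. That of 10 tissue macrophage genes ran from 5.76 to 8.85 and from 9.60 to 11.55, and among these genes Siglec1 was well above background on none of the unirradiated young arrays. Natural killer cell markers (7.99 to 9.39 and 9.45 to 11.22) and platelet markers (11.66 to 12.39 and 12.97 to 14.22) were also higher without overlap in summed level. In the mean level of its genes the neutrophil list did overlap, from 4.36 to 5.23 and from 5.11 to 6.08. The part of any of these cells in the 3 rises was not tested. The directions held in all 29 alternatives run, but the 3 genes were not called with normexp background correction (limma adjusted p = 0.101, 0.133 and 0.0918 for Tlr4, Tlr6 and Tlr13), in 1 fit over all 24 arrays (0.149, 0.21 and 0.132) or with spike-in scaling (0.0528, 0.112 and 0.0869), nor within the slide that held both groups (0.119, 0.314 and 0.292). Tlr6 was also not called in the authors' deposited log2 values (0.82, limma adjusted p = 0.0353).

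Tlr7, a receptor of single-stranded RNA, was measured by a pair of probes that did not move alike. With the brighter probe, young mice ran from 4.46 to 5.87 with a median of 5.34 before and from 4.18 to 6.15 with a median of 5.28 after irradiation. The difference was 0.01 (SE 0.321, limma adjusted p = 0.988), within the spread of either group. Old mice ran from 4.88 to 5.82 with a median of 5.21 in controls and from 3.91 to 8.75 with a median of 4.69 after irradiation. The upper end came from mice 4 and 6 at 8.75 and 7.22, and the other 4 irradiated mice, between 3.91 and 4.75, lay below all old controls. The difference was 0.32 (SE 0.719, limma adjusted p = 0.747) over all 6 mice and -0.88 (limma adjusted p = 0.011) without mice 4 and 6, a direction that turned and a call that was made only then.

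The second Tlr7 probe lies on the same RefSeq transcript, upstream of the first. It ran from 3.54 to 4.09 with a median of 3.66 in old controls and from 0.16 to 3.29 with a median of 2.84 in old irradiated mice. With this probe the groups did not overlap, mice 4 and 6 were the lowest rather than the highest (mouse 6 not well above background), and the log2 difference was -1.70 (exact permutation test, two-sided, p = 0.00216, n = 6 each). Without mice 4 and 6 the difference was -0.80, with means of 2.96 (n = 4) and 3.76 (n = 6) that still did not overlap (exact permutation test, two-sided, p = 0.00476, the smallest this test can give). In young mice it was 0.20 (exact permutation p = 0.281, n = 6 each). The remaining Tlr7 probe was well above background on 0 of 24 arrays.

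**Figure D3:**
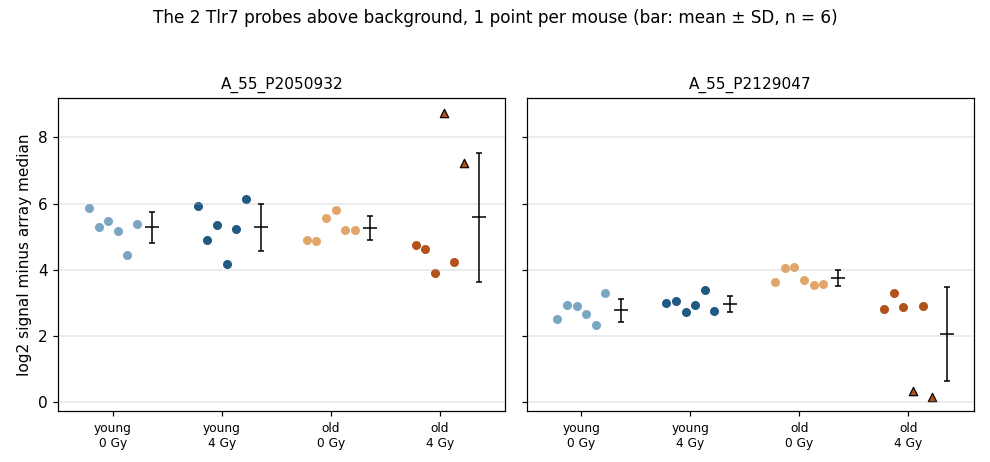
Level (log2 signal minus array median) of the 2 Tlr7 probes above background in each mouse, 1 panel per probe, with a bar for the mean ± SD of 6 mice; triangles mark old irradiated mice 4 and 6. With the first probe these mice are the highest of the series, at 8.75 and 7.22, and with the second the lowest, at 0.34 and 0.16.

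Tlr8, encoded next to Tlr7 on the X chromosome, had the widest spread of the 9 genes among young mice (SD 0.87 in controls and 0.895 in irradiated mice, n = 6 each). Young mice ran from 0.54 to 2.49 with a median of 1.67 in controls and from -0.67 to 1.54 with a median of 1.3 after irradiation, and the difference was -0.71 (SE 0.458, limma adjusted p = 0.225). Old mice ran from -0.26 to 1.13 with a median of 0.52 in controls and from -0.59 to 4.19 with a median of 0.79 after irradiation. Here too mice 4 and 6 were the highest, at 4.07 and 4.19, and the other 4 reached at most 1.01. The difference was 1.14 (SE 0.771, limma adjusted p = 0.266), and -0.13 (limma adjusted p = 0.793) without mice 4 and 6. A second Tlr8 probe was well above background on 4 of 24 arrays.

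Tlr9, the receptor of unmethylated CpG DNA, had the narrowest spread of the 9 genes among young controls (SD 0.101, n = 6). It ran from 6.21 to 6.45 with a median of 6.24 in controls and from 6.09 to 6.65 with a median of 6.36 after irradiation, a difference of 0.08 (SE 0.133, limma adjusted p = 0.665). Old mice ran from 5.47 to 6.20 with a median of 5.51 in controls and from 5.45 to 8.62 with a median of 5.95 after irradiation. Mice 4 and 6 were the highest, at 8.42 and 8.62, and the other 4 lay between 5.45 and 6.00. The difference was 0.97 (SE 0.55, limma adjusted p = 0.187), and 0.06 (limma adjusted p = 0.848) without mice 4 and 6. The summed level of 6 plasmacytoid dendritic cell genes ran from 10.34 to 11.29 in old irradiated mice, with mice 4 and 6 inside that range at 10.78 and 11.02.

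Tlr3, the receptor of double-stranded RNA, was near the detection limit. Its probe was well above background on 2 of 24 arrays, 1 young irradiated and 1 old irradiated, and levels ran from -4.16 to -1.12. No difference is drawn from it.

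Myd88, the adaptor, ran from 4.11 to 4.79 with a median of 4.38 in young unirradiated and from 4.6 to 5.35 with a median of 5.02 in young irradiated mice. The groups overlapped slightly. The means were 4.44 ± 0.268 and 5 ± 0.27 (SD, n = 6 each), and the log2 difference of 0.56 (SE 0.17, limma adjusted p = 0.0151) was not called because the unadjusted p was 0.00551. It passed both thresholds when young unirradiated mouse 2, young unirradiated mouse 6 or young irradiated mouse 4 was left out, with differences of up to 0.64. In old mice Myd88 ran from 5.63 to 6.72 with a median of 5.92 in controls and from 4.55 to 7.42 with a median of 6.35 after irradiation. The difference was 0.08 (SE 0.512, limma adjusted p = 0.916), and 0.85 (limma adjusted p = 0.0431) without mice 4 and 6, not called either way.

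**Figure D4:**
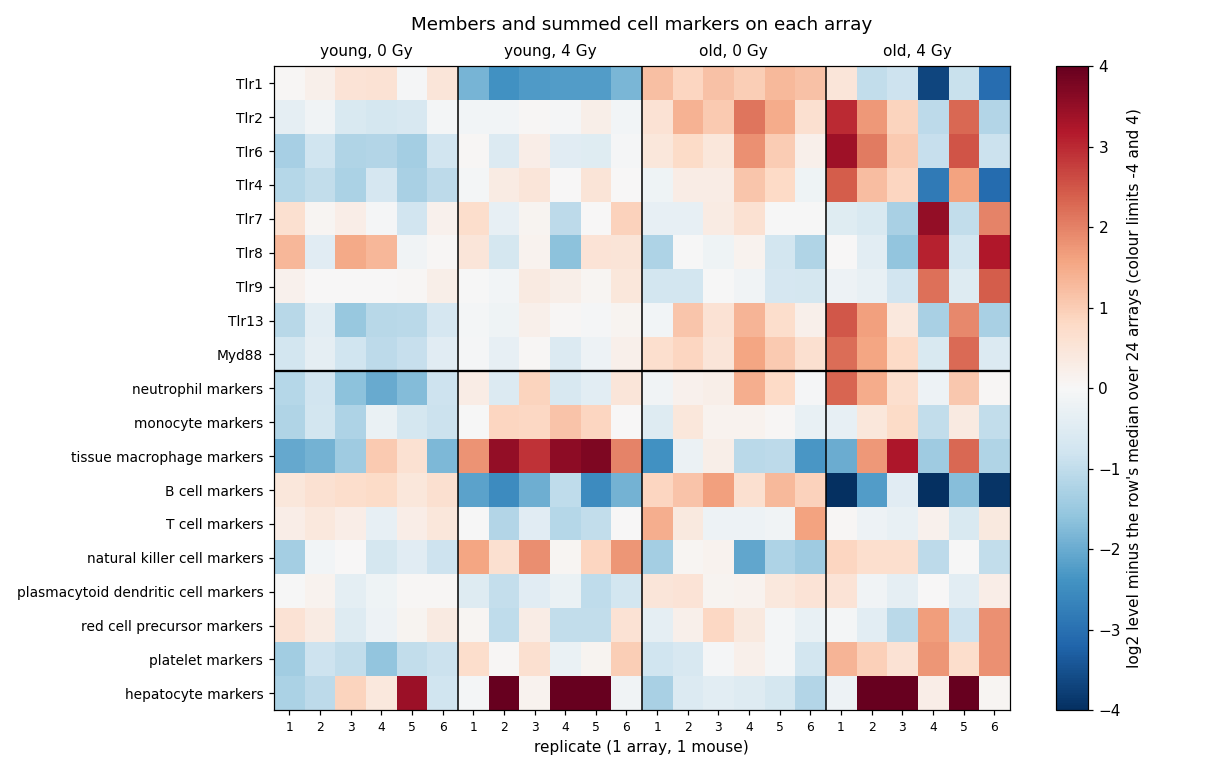
Level of the 9 tested genes (upper rows) and summed level of the cell marker lists (lower rows) on each of the 24 arrays, coloured by the difference (log2) from the median of that row, with limits at -4 and 4 and 6 mice per group. Old irradiated mice 4 and 6 are high in Tlr7, Tlr8, Tlr9 and red cell precursor and platelet markers. They are low in Tlr1, Tlr4 and monocyte and natural killer cell markers, and near the row's median in neutrophil markers.

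The comparison of old with young unirradiated mice, which compared the ages without radiation, gave the most calls. Of the 9 genes, 6 were higher in old mice (Tlr6, Tlr2, Tlr13, Myd88, Tlr4 and Tlr1), against 48.2% of all genes, and 1 was lower (Tlr9), against 15.5%. In 7 of the 9 genes old and young mice did not overlap, against 48.6% of all genes. The median of all genes was itself 0.63 higher in old mice on this scale, so each difference of the 9 genes is also given relative to it. Under other scalings the all-gene median lay between -0.11 and 0.11, and the share of calls that were higher in old mice was 75.7% here against 17.3% in the authors' deposited values, 12.9% with spike-in scaling and 20.6% to 42.5% with the others. The 6 members kept their direction under all 28 alternatives, as did Tlr9.

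Tlr6 showed the largest difference with age among the 9 genes on this scale, 1.88 (SE 0.242, limma adjusted p = 2.93e-05) and 1.26 relative to all genes, where Tlr8 was farther from 0. The mean was 3.83 ± 0.579 in old and 1.95 ± 0.256 in young controls (SD, n = 6 each), and the lowest old mouse, at 3.25, was above the highest young mouse, at 2.29. Tlr2 was higher by 1.63 (SE 0.248, limma adjusted p = 8.62e-05), or 1 relative to all genes, with means of 4.82 ± 0.591 and 3.19 ± 0.271 (SD, n = 6 each). All old mice were at or above 4.18 and all young mice at or below 3.54. Tlr13 was higher by 1.62 (SE 0.252, limma adjusted p = 0.000101), or 0.99 relative to all genes. Its means were 7.09 ± 0.542 and 5.47 ± 0.384 (SD, n = 6 each), with the lowest old mouse at 6.35 and the highest young mouse at 6.03.

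Myd88 was higher in old controls by 1.60 (SE 0.193, limma adjusted p = 1.94e-05), or 0.97 relative to all genes, with means of 6.03 ± 0.393 and 4.44 ± 0.268 (SD, n = 6 each). Tlr4 was higher by 1.43 (SE 0.22, limma adjusted p = 9.14e-05), or 0.81 relative to all genes, with means of 2.40 ± 0.514 and 0.96 ± 0.229 (SD, n = 6 each). These 2 genes did not overlap between the ages either. Tlr4 was not called in the authors' deposited values (0.93, limma adjusted p = 0.0195), with normexp (0.48, limma adjusted p = 1) or in 1 fit over all 24 arrays (limma adjusted p = 0.0668), and over the 28 alternatives the difference ran from 0.48 to 1.54 for Tlr4 and from 0.93 to 1.68 for Myd88.

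Tlr1 stood closer to the shift of all genes. It was higher in old controls by 0.81 (SE 0.148, limma adjusted p = 0.000288), but by 0.19 relative to all genes, and it was not called under 75th percentile scaling (0.30), quantile normalization (0.24), scaling to the bright probes' median (0.23), spike-in scaling (0.25) or in the deposited values (0.15). Tlr9 was lower in old controls, with a log2 difference of -0.59 (SE 0.157, limma adjusted p = 0.00401), or -1.21 relative to all genes. Its means were 5.71 ± 0.337 and 6.29 ± 0.101 (SD, n = 6 each), and the old maximum of 6.20 lay just under the young minimum of 6.21. The Tlr9 call ended when young unirradiated mouse 1 or 6 or old unirradiated mouse 1, 2, 5 or 6 was left out, where differences ran from -0.69 to -0.54 over all 12 mice.

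Tlr7 and Tlr8 were not called between the ages. The brighter Tlr7 probe differed by -0.02 (SE 0.229, limma adjusted p = 0.952), with a 95% interval from -0.51 to 0.48, and by -0.64 relative to all genes. Tlr8 differed by -1.15 (SE 0.385, limma adjusted p = 0.0148), with an unadjusted p of 0.0102, and by -1.77 relative to all genes. It was called under 75th percentile scaling (-1.67, limma adjusted p = 0.00438), scaling to the bright probes' median (-1.74, 0.00341), spike-in scaling (-1.72, 0.00378) and slide as a random block (-1.17, 0.00306). It was also called when young unirradiated mouse 2 was left out (-1.36, limma adjusted p = 0.0054). The summed level of neutrophil markers ran from 12.50 to 14.08 in old and from 10.63 to 11.88 in young controls, that of monocyte markers from 10.73 to 11.68 and 9.99 to 10.98, and that of B cell markers from 10.85 to 11.84 and 10.66 to 10.96. That of platelet markers ran from 12.42 to 13.42 and 11.66 to 12.39. These levels are on the scale where the median of all genes was 0.63 higher in old controls, and the B cell medians were 11.24 and 10.83. The part of these cells in the age differences was not tested.

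The promoters of the adaptor and of Tlr13 are shown as further examples. Myd88 holds 1 match to the interferon-stimulated response element 40 bases before the start, and Tlr13 holds 1 to the PU.1 core 83 bases before it. Not shown are Tlr2, with an NF-kappaB match at 172 bases that reads the same on both strands, Tlr3, with NF-kappaB matches at 211 and 23 bases, Tlr8, with a PU.1 match at 77 bases, and Tlr9, with a PU.1 match at 112 and an AP-1 match at 58 bases.
Myd88, chr9:119340019-119340268, minus strand: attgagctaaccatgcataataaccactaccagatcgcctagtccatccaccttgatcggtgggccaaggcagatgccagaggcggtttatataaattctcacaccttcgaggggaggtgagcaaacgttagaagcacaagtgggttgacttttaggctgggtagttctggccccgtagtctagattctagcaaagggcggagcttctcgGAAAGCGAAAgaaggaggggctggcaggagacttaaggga
Tlr13, chrX:106143025-106143274, plus strand: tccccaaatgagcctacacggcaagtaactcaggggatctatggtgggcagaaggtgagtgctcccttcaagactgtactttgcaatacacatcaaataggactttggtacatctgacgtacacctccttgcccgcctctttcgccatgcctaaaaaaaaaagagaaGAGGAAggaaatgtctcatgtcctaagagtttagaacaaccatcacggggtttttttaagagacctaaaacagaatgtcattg

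After irradiation, old and young mice gave 0 calls among the 9 genes in limma, where 1.40% of all genes were called higher and 0.601% lower. At an unadjusted p under 0.05 there was 1, Myd88 with 1.11 (SE 0.506, limma adjusted p = 0.224), and the random variance test also gave 0 calls. The median difference of the 9 genes was 0.65, and that of all genes was 0.20. Without old irradiated mice 4 and 6 the picture changed, and 6 of the 9 genes were higher in old irradiated mice, against 20.3% of all genes called higher and 8.22% lower in the same fit. These were Tlr6 with 2.46 (limma adjusted p = 0.00186), Tlr2 with 1.99 (0.00221), Myd88 with 1.88 (0.00188), Tlr13 with 1.61 (0.00426), Tlr1 with 1.58 (0.0029) and Tlr4 with 1.32 (0.00555). Tlr4 had been -0.18 (limma adjusted p = 0.938) with all mice, so its direction turned. Without mice 4 and 6, Tlr7, Tlr8 and Tlr9 were at -0.90, -0.57 and -0.61 and were not called.

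Whether radiation acted differently by age was tested as the interaction over all 24 arrays, and 0 of the 9 genes and 0 of 17472 genes were called. Across all genes 4116 had an unadjusted p under 0.05, the lowest adjusted p was 0.0598, and among the 9 genes 0 had an unadjusted p under 0.05. The largest differences of responses, old minus young, were 1.85 for Tlr8 (SE 0.942, limma adjusted p = 0.227) and -1.61 for Tlr4 (SE 0.936, limma adjusted p = 0.28). The interval of Tlr1, from -1.46 to 1.13, leaves room for responses that differ by more than 1 on the log2 scale in either direction. Without mice 4 and 6 the difference of responses was 0.58 for Tlr8 (limma adjusted p = 0.706), -0.11 for Tlr4 (limma adjusted p = 0.919) and 0.76 for Tlr1 (limma adjusted p = 0.257).

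The wider pathway was followed in 68 genes of 7 lists, of which 59 were tested. In young mice irradiation raised 11 and lowered 13, and in old mice it raised 2 and lowered 12. Old unirradiated mice were higher than young ones in 41 and lower in 0, and old irradiated mice higher than young irradiated ones in 1. The median difference of the 59 genes was -0.01, -0.57, 0.87 and 0.27 in these comparisons, against -0.20, -0.25, 0.63 and 0.20 for all genes. Without old irradiated mice 4 and 6, irradiation of old mice raised 4 and lowered 15, against 11.9% and 22.8% of all genes, and 28 were higher in old than in young irradiated mice and 0 lower, against 20.3% and 8.22%. The percentages of all genes called, given above, are the background for these counts as well. Age differences of single pathway genes in controls are given below on the same scale. They still hold the 0.63 by which the median of all genes was higher.

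Of the 3 other Toll-like receptors, Tlr12, a receptor of protozoan profilin, rose with irradiation at both ages, by 1.26 in young mice (SE 0.259, limma adjusted p = 0.00161) and 1.71 in old mice (SE 0.209, limma adjusted p = 0.000279). Without mice 4 and 6 the rise in old mice was 1.63 (limma adjusted p = 9.55e-05). Its age difference of 0.60 in controls disappeared under quantile normalization and was -0.09 in the deposited values.

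Of the 9 genes for co-receptors and receptor trafficking, irradiation of young mice raised 4 and lowered 1. Lbp, which carries lipopolysaccharide, rose by 4.72 (SE 0.763, limma adjusted p = 0.00032), Cd14, which hands it over, by 3.15 (SE 0.562, limma adjusted p = 0.000626), and Ly96 (MD-2), which binds it on Tlr4, by 1.31 (SE 0.186, limma adjusted p = 0.000133). Lbp was well above background in 3 of 6 young controls and in 6 of 6 irradiated young mice. The liver is the main source of Lbp, and the summed level of 10 hepatocyte genes ran from 7.05 to 11.74 in young controls and from 8.19 to 15.42 in irradiated young mice, a part that was not tested. Hsp90b1, the chaperone of these receptors, rose by 1.22 (SE 0.258, limma adjusted p = 0.0019). The 1 gene that fell was Cd36, a scavenger receptor of lipids, with -1.31 (SE 0.221, limma adjusted p = 0.000431). None of these genes was called with all 6 old irradiated mice. There Lbp was at 1.34 (limma adjusted p = 0.281), Cd14 at 0.65 (0.604), Ly96 at -0.12 (0.868), and Hsp90b1 and Cd36 at -0.58 (0.341 and 0.628). In old mice 2 genes fell, Ly86 with a log2 difference of -2.61 (SE 0.628, limma adjusted p = 0.00714) and Cd180 with -1.78 (SE 0.447, limma adjusted p = 0.00886), which together form a receptor complex known from B cells. Both falls were still called without mice 4 and 6, with -1.59 (limma adjusted p = 0.00144) and -1.21 (limma adjusted p = 0.012). That fit called 3 of the 9 genes lower and 2 higher in irradiated old mice. Cd180 was well above background on 2 of 6 old irradiated arrays and 6 of 6 old control arrays, which limits what the size of its fall can show. Unc93b1, which carries endosomal receptors to their site, was higher in old controls by 0.97 (SE 0.158, limma adjusted p = 0.000134), a difference that ran from 0.23 to 1.05 over the alternatives.

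Of the 4 other TIR adaptors tested, Tirap, which links Myd88 to Tlr2 and Tlr4, was higher in old controls by 1.36 (SE 0.174, limma adjusted p = 2.8e-05), and Ticam1 by 0.83 (SE 0.113, limma adjusted p = 3.95e-05). Over the alternatives these differences ran from 0.46 to 1.44 for Tirap and from 0.26 to 0.87 for Ticam1. Irradiation of young mice raised Tirap by 0.69 (SE 0.181, limma adjusted p = 0.00748), a call lost on leaving out any of 5 of the 12 mice. Pik3ap1 fell in old mice with -1.42 (SE 0.422, limma adjusted p = 0.0197), a call kept in 3 of 12 fits that left out 1 mouse and lost without mice 4 and 6 (-0.91, limma adjusted p = 0.0452). Pik3ap1 was well above background on 3 of 6 old irradiated and 5 of 6 old control arrays. Of the 14 kinases and ubiquitin ligases tested, 3 fell and 2 rose with irradiation of young mice, 3 fell in old mice, and 11 were higher in old than in young controls. Ikbkb, a kinase that releases NF-kappaB, fell at both ages, with log2 differences of -0.67 in young mice (SE 0.159, limma adjusted p = 0.00391) and -1.78 in old mice (SE 0.371, limma adjusted p = 0.00361), and was 1.3 higher in old controls (SE 0.171, limma adjusted p = 3.32e-05). Its fall in old mice without mice 4 and 6 was -1.23 (limma adjusted p = 0.00062). Irradiation of young mice lowered Peli1, a ubiquitin ligase acting on Irak proteins, with -0.95 (SE 0.218, limma adjusted p = 0.00313), and Tab1, a partner of the kinase Map3k7, with -0.85 (SE 0.144, limma adjusted p = 0.00043). Tab1 also fell in old mice, with -1.17 (SE 0.317, limma adjusted p = 0.0131), a call kept in 7 of 12 fits that left out 1 mouse. Peli1 was not called there (-1.10, limma adjusted p = 0.0403). Ripk1 was higher in old controls by 1.41 (SE 0.14, limma adjusted p = 5.03e-06).

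Of the 10 transcription factors, 5 fell and 1 rose with irradiation of young mice and 4 fell in old mice. Rel, an NF-kappaB subunit prominent in lymphocytes, fell with log2 differences of -1.65 in young mice (SE 0.215, limma adjusted p = 7.7e-05) and -2.01 in old mice (SE 0.458, limma adjusted p = 0.00555). Nfkb2 fell with -1.29 in young (SE 0.128, limma adjusted p = 1.13e-05) and -2.13 in old mice (SE 0.407, limma adjusted p = 0.00236). The falls in old mice without mice 4 and 6 were -1.3 for Rel (limma adjusted p = 0.00108) and -1.48 for Nfkb2 (limma adjusted p = 0.00015). In old controls 7 of the 10 were higher, led by Jun with 1.42 (SE 0.224, limma adjusted p = 0.00011) and Nfkb1 with 1.19 (SE 0.165, limma adjusted p = 4.8e-05). Rela was the 1 pathway gene called higher in old than in young irradiated mice, by 0.89 (SE 0.206, limma adjusted p = 0.0455), and that call was kept in 1 of 12 fits that left out 1 mouse. It was 0.93 without mice 4 and 6 (limma adjusted p = 0.00237).

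Of the 11 negative regulators, 4 fell and 2 rose with irradiation of young mice, 2 fell and 1 rose in old mice, and 10 were higher in old controls. Tollip, an inhibitor of Irak1, rose by 1.83 in young mice (SE 0.288, limma adjusted p = 0.000268). Its rise in old mice, 1.18 (SE 0.352, limma adjusted p = 0.0196), stayed called in 2 of 12 fits that left out 1 mouse, and without mice 4 and 6 it was 1.66 (limma adjusted p = 0.000353). Tnfaip3 (A20) fell at both ages, with -1.12 in young mice (SE 0.242, limma adjusted p = 0.00224) and -0.97 in old mice. Its call in old mice was kept in 12 of 12 fits that left out 1 mouse. Sigirr fell with -0.98 in young (SE 0.174, limma adjusted p = 0.000594) and -1.33 in the old group (SE 0.24, limma adjusted p = 0.00177), or -1.12 without mice 4 and 6 (limma adjusted p = 0.000718). In old controls Socs3, an inhibitor of cytokine signalling, was higher by 2.40 (SE 0.332, limma adjusted p = 4.62e-05), and Il1rl1, the receptor of an interleukin, by 1.44 (SE 0.273, limma adjusted p = 0.000394). Among the 8 induced cytokines and enzymes tested, 0 were called with irradiation at either age and 5 were higher in old controls. Il6, with -2.05 (limma adjusted p = 0.028) after irradiation of old mice, missed the threshold, as it did without mice 4 and 6 (-1.47, limma adjusted p = 0.0952). Without the 7 arrays high in hepatocyte markers Il6 fell in old mice (-3.49, limma adjusted p = 0.000181), and Il1b (1.62, limma adjusted p = 0.00962), Ccl3 (1.43, limma adjusted p = 0.00394) and Ccl5 (0.77, limma adjusted p = 0.011) rose in young mice. Those fits left mice 1, 4 and 6 in the old irradiated group, which holds the 2 mice that stood apart, and mice 1, 3 and 6 in the young irradiated group. Among the 5 genes higher in old controls were Il6 with 2.46 (SE 0.214, limma adjusted p = 1.94e-06), which was well above background in 6 of 6 old and 2 of 6 young controls, and Il1b with 2.19 (SE 0.414, limma adjusted p = 0.000383).

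The likeness of patterns was measured, as a description, by the root mean square difference between genes over the 24 arrays after each gene was centred. Within the family, Tlr2 and Tlr13 were closest, at 0.301, followed by Tlr2 and Myd88 at 0.328. Tlr13 lay closest to Tgfbi (0.16) and Anxa2 (0.211), and Myd88 to Svil (0.169) and Cep19 (0.179). Tlr2 lay closest to Csf2rb2 (0.205) and Csf2rb (0.259), a pair of very similar genes whose probes may share signal, and Tlr6 to Csf2rb (0.235) and Tnfaip2 (0.24). Tlr4 lay closest to Slc11a1 (0.344) and Rab31 (0.36), and Tlr1 to Rhobtb2 (0.418) and Icosl (0.421). Tlr7 lay closest to Pi4k2a (0.239) and Pkp3 (0.281), Tlr9 to a probe with no gene name (0.227) and to Nom1 (0.249), and Tlr8 to Gm3285 (0.383) and Gm13021 (0.464). Genes measured on 1 array share its signal and background.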

How the data were processed

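Blood RNA of 24 mice was hybridised to 24 single-dye arrays. The intensity values were made by Agilent Feature Extraction 12.0.2, per the file headers, with background subtracted and no scaling between arrays, and were deposited as 1 file per array. A table of log2 values that the authors filtered and normalized before deposit served as an alternative. The number of arrays and their signal over background limit the precision.

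From the intensities, log2 was taken, spots marked non-uniform were set to missing and each array was centred on the median of its non-control spots. Probes non-uniform or not above background on at least 25% of the arrays were dropped (24130 probes remained), repeat spots were averaged, the probe with the highest mean represented a gene (18737 genes), and genes needed a 1.5-fold difference from their median on at least 20% of the arrays (17472). The 2-group comparisons were fitted on 12 arrays and the interaction on 24 with limma 3.58.1 in R 4.3.3, two-sided, with Benjamini-Hochberg adjustment over all 17472 genes, thresholds of 0.005 for p and 0.05 for the adjusted p, and no covariate. Single probes were also tested by exact permutation, two-sided. The tests were tried on simulated data. Figures were drawn in Python 3.11.15 with matplotlib 3.10.9.

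The mice are separate animals, and the sample labels give no pairing of mice with equal replicate numbers. The members and the gene lists were chosen with earlier results of these data known. Named by rule were the 10 members, in each pathway list the 2 largest called differences of each comparison and the 2 highest means (given where a call was made), and for each tested member the 2 genes with the most similar values. Ly96, Cd36 and Ccl3 were named beyond it, chosen after its values were seen. Alternatives were other scalings, normexp background correction (offset 50), the deposited values, other filters, the mean of a gene's probes, a random variance test, limma with trend, 1 fit over 24 arrays, a block for the replicate number or the slide, comparison within a slide, and leaving out each array. Those chosen after seeing the data were leaving out old irradiated arrays 4 and 6, leaving out 7 arrays with high hepatocyte markers, averaging the 4 most alike pairs of arrays, and spike-in scaling. Promoters came from RefSeq, GRCm38.p6.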

Additional observations from a re-analysis of the deposited data

Results flagged for a closer look

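The second Tlr7 probe, which was not among the tested probes, carried a signal in old unirradiated mice above that in young unirradiated mice. It ran from 3.54 to 4.09 in old and from 2.33 to 3.30 in young controls, a log2 difference of 0.98 with no overlap (exact permutation test, two-sided, p = 0.00216, n = 6 each, the smallest p that this test can give). Relative to the shift of all genes between these groups the difference was 0.36. The brighter Tlr7 probe differed by -0.02 (limma adjusted p = 0.952) in the same mice. In 36 groups examined (9 genes in 4 groups), no mouse lay far enough from the other 5 to be singled out. The rule looks for 1 extreme mouse by its gap to the nearest other mouse. It therefore cannot single out 2 mice that lie close together, such as old irradiated mice 4 and 6.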

How the results depend on the processing

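Of 1399 values of the 9 genes under the alternatives, 1335 kept their side of the threshold, 41 lost a call, 21 gained one and 2 turned direction with a call. The 1335 include values called in neither fit, which were counted whatever their direction. Some of these turned, and the Tlr7 difference in young mice after irradiation kept its direction in 19 of 29 alternatives. The 2 values that turned with a call were Tlr7 after irradiation in old mice, -0.88, and Tlr4 in old against young irradiated mice, 1.32, both without old irradiated mice 4 and 6. The count of members called with radiation in young mice, 4, became 0 with normexp, 1 in the fit over 24 arrays, 0 within the slide and 1 with spike-in scaling. In old mice 1 became 0 with normexp, 0 within the slide, 2 without mice 4 and 6 and 3 without the 7 arrays high in hepatocyte markers (Tlr1, Tlr8 and Tlr9), which leaves mice 1, 4 and 6 in the old irradiated group. The 7 of old against young controls became 0 with normexp and 4 in the fit over 24 arrays, the 0 of old against young irradiated mice became 6 without mice 4 and 6, and the interaction's 0 became 1 without the 7 arrays (Tlr8, 3.02, limma adjusted p = 0.0209). The causes were not tested. Leaving out each mouse gave 4 to 5, 1 to 1, 6 to 8, 0 to 0 and 0 to 0 members in the 5 comparisons.

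With the replicate number as a block the counts were 4, 1, 6, 0 and 0, and Tlr9 lost its call between old and young controls (limma adjusted p = 0.0151). Deviations of same-numbered mice correlated between -0.29 and 0.30 in the comparison of young mice and between -0.20 and 0.34 in that of old mice. In that of irradiated mice they correlated between -0.60 and 0.58. With 6 values of both signs per comparison and no reference, these correlations cannot decide whether equal numbers mark a shared factor. Among pathway genes, the difference of old against young controls turned for Sigirr (-0.03 with quantile normalization, -0.02 with the median of bright probes, -0.11 in the deposited values), Tab1 (-0.14 with quantile normalization, -0.03 with normexp, -0.23 deposited, -0.12 with spike-in scaling), Tlr12 (0 with quantile normalization, -0.09 deposited) and Irf3 (-0.13 deposited).

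The calls over all genes ran from 116 within the slide to 8789 with slide as a random block for radiation in young mice (6252 as reported), from 8 with normexp to 7071 without the 7 arrays in old mice (4367), from 0 with normexp to 12675 for age in controls (11140), and from 2 with the replicate block to 4976 without mice 4 and 6 for age after irradiation (350). For the interaction, 0 as reported, they reached 1043 without old irradiated mouse 3 and 3205 without the 7 arrays. The share of calls that were higher moved from 30.4% to 54.4% for radiation in old mice with the median of bright probes. Tlr8 gave no value with normexp, where 8 members were tested, the fit over 24 arrays is the same as the one reported for the interaction, and no slide held both ages. Signal over background limits Tlr3 and the dimmer probes of Tlr4, Tlr7 and Tlr8. Of 60 pairs of arrays within a group, the 4 most alike differed by 2.90 to 3.55 times the noise between repeat spots and were kept as separate mice.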
